A study of Mus musculus with 6 samples.

Results

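Amino acid transporter genes were examined in mouse hepatocytes after delivery of Sox4, a transcription factor of the SOX family. The members were the gene symbols of solute carrier families 1, 3, 6, 7, 36, 38 and 43 in the count table, with a few members of families 1 and 7 left out by the rule that chose them. Symbols with a letter after the last number, such as Slc6a20a and Slc6a20b of family 6, did not match and were read among other carriers. The rule gave 59 of the 53599 symbols in the table. Of these, 29 had enough counts to be tested, 14 had a few counts, with a highest value of 10 in any library, and 16 had no count in any library.

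RNA was sequenced from hepatocytes of mice injected with an adeno-associated virus carrying HA-tagged mouse Sox4 and Cre (AAV8-TBG-HA-Sox4-P2A-Cre, here Sox4) or Cre alone (AAV8-TBG-Cre, here empty vector or EV), with 3 libraries in each group, and the labels give the genotype as Sox4 and WT, respectively. The TBG promoter directs expression of either vector to hepatocytes, and animals of both groups received Cre. The methods of the study name male Rosa-LSL-Cas9-EGFP mice on a C57BL/6J background, in which Cre turns on Cas9 and EGFP. At 4 days after injection, cells were released with liberase and enriched on Percoll, and the labels name no sort for infected cells. Mice given Sox4 vectors were 4 to 8 weeks old at injection per the methods. Total counts were 15090629 to 16249382 in EV and 16679195 to 16964860 in Sox4.

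Amino acids cross membranes through carriers that differ in what drives them. Sodium coupled carriers move their substrate uphill, exchangers trade an amino acid on one side for one on the other, and facilitated carriers let it move down its gradient. Heteromeric exchangers consist of a heavy chain, encoded by an Slc3 gene, that brings the complex to the membrane, and a light chain, encoded by an Slc7 gene, that carries the substrate. The liver takes up amino acids for urea and glucose synthesis, and hepatocytes are known for sodium coupled uptake of glutamine and alanine by Slc38 carriers and for uptake of arginine by Slc7a2.

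The delivered gene was examined first. Sox4 had 2, 0 and 3 counts in the EV libraries and 21697, 15097 and 11816 in the Sox4 libraries, which matched the labels. Hepatocyte markers were abundant in every library. Their summed level was 122262 to 144055 CPM in EV and 85308 to 99218 in Sox4, and 4 of 7 tested were lower. CPM are counts per 1e+06 of library size scaled with TMM, the trimmed mean of M-values. Sox4 libraries exceeded EV libraries 1.48-fold in scaled size but 1.07-fold in total counts, so these sums are relative to that scale. Markers of other liver cells were low but not absent, and 2 of 7 tested Kupffer, 2 of 8 endothelial, 3 of 4 stellate and 2 of 4 cholangiocyte markers were higher in Sox4, while 1 endothelial marker, Stab2, was lower. Over all genes tested, 29% were higher and 26% lower, so the Kupffer and endothelial counts lay near that share. Their summed levels in EV and Sox4 were 11.6 to 26.4 and 24.3 to 58.9 CPM for Kupffer cells, 19.3 to 31.2 and 15.8 to 37.5 for endothelial cells, 8.40 to 45.3 and 79.9 to 140.1 for stellate cells, and 23.0 to 32.1 and 63.6 to 71.1 for cholangiocytes. Most of the stellate sum was Reln, with 2522, 2291 and 1003 counts in Sox4, beside 71, 243 and 335 for Dcn. Of the defining markers, Krt19 and Krt7 were at 0 in EV, and lymphoid and neutrophil markers summed to at most 0.919 CPM. The erythroid list, nearly all Alas2, summed to 93.0 to 126 CPM in EV and 4.97 to 15.5 in Sox4, with globin genes at no more than 22 counts. In bulk RNA, more cells of a type and more RNA per cell cannot be told apart. The part of these markers in the results on transporters was not tested.

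Promoter sequence was compared next, because Sox4 binds DNA. Each window was the 250 bases before a transcription start in RefSeq (GRCm38.p6, whereas the counts were made on GRCm39), and 41 members had an entry, with 62 windows. The SOX core letters ACAAAG, read on both strands, were in 11 of the 62 member windows (17.7%), against 16.5% of all 32851 windows. CAAAGTC, part of an HNF4A site and overlapping the SOX core where both are present, was in 2 (3.23%, against 3.84% of all). TGATGCA, part of a site for C/EBP and ATF factors, was in 3 (4.84%, against 2.68% of all). Windows of neighbouring starts can overlap, so the same site can be counted more than once, as in both windows of Slc7a9. A match is a description of the letters only. The windows below are those of a heavy chain, its light chain, an exchanger that rose and a sodium coupled carrier that fell. They are written 5′ to 3′ on the strand of the gene, and capitals mark the matches, of which Slc1a4 had none. Slc3a1 lies at chr17:85028097-85028346 on the plus strand, and its capitals hold ACAAAG and CAAAGTC overlapping. Slc7a9 lies at chr7:35448842-35449036 on the plus strand, cut to the 195 bases before an annotated exon, and Slc38a4 at chr15:97020360-97020609 on the minus strand is the window with a match among 3 starts, the others having none; in both the capitals are ACAAAG read on the other strand. Slc1a4 lies at chr11:20332714-20332963 on the minus strand.
Slc3a1: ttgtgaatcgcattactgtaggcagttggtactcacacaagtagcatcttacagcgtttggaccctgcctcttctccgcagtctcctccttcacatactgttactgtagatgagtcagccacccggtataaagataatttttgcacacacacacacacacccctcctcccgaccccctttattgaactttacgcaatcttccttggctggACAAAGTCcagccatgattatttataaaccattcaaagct
Slc7a9: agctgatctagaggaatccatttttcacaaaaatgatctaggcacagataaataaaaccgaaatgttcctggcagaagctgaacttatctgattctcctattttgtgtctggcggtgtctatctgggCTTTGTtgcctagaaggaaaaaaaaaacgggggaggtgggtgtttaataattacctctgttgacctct
Slc38a4: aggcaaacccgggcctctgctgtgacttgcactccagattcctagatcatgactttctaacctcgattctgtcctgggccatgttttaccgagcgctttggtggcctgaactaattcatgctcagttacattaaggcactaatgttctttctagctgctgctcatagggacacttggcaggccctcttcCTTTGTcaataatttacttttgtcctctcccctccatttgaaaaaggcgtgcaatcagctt
Slc1a4: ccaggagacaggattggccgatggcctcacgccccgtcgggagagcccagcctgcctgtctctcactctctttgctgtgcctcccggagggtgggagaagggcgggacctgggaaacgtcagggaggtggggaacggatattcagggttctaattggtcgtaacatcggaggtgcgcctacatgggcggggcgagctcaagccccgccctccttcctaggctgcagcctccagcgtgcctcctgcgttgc

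Of the 29 tested members, 14 were higher in Sox4, 7 were lower and 8 did not pass the threshold of an adjusted p of 0.05 (edgeR quasi-likelihood test). Over all 12691 genes tested, 29% were higher and 26% were lower, or 55.1% in either direction. Changes of at least 2-fold past the threshold were found for 7 members upward and 5 downward, against 16.5% and 11.9% of all genes. The lowest Sox4 library was above the highest EV library for 14 members, and the reverse held for 7, against 33.1% and 29.9% of all genes. The median log2 fold change of the tested members was 0.44, beside 0.04 for all genes. The members were not a sample of independent genes, and 4 of them (Slc1a5, Slc7a6, Slc7a8 and Slc7a9) passed the filter on low counts through the Sox4 libraries alone, which fixed their direction, so these counts are a description.

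Levels below are CPM on library sizes scaled with TMM, the trimmed mean of M-values, and changes are relative to that scale. Sox4 libraries exceeded EV libraries 1.48-fold in scaled size and 1.07-fold in total counts. With total counts alone, the median of all genes moved to 0.51 and that of the members to 0.91, with 19 members higher (51% of all genes) and 6 lower (12.8%). The higher members made up 66.7% of the called members with TMM and 76% with total counts, against 52.7% and 79.9% of all called genes. All 14 members higher with TMM were also higher with total counts, and 6 of the 7 lower members stayed lower. Slc7a2 was the member whose direction flipped.

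**Figure D1:**
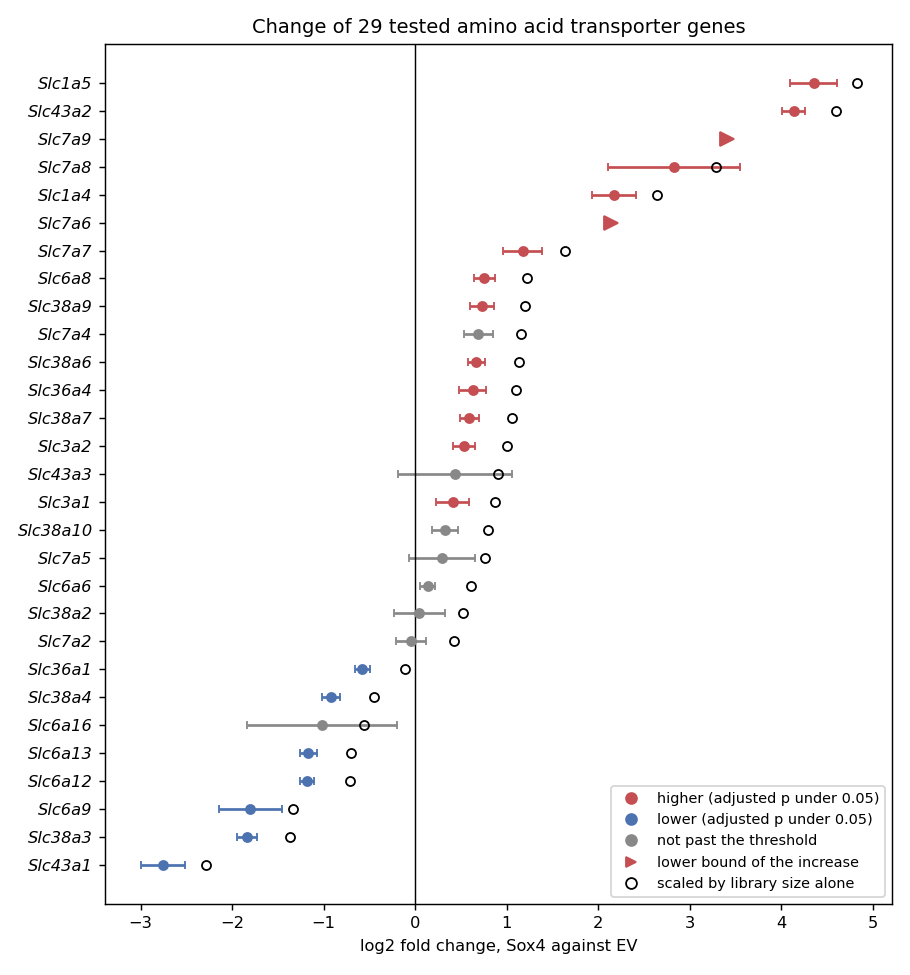
Log2 fold change of Sox4 against EV (x axis) for the 29 tested amino acid transporter genes, ordered by the value drawn. Bars are 1 SE, and colour gives the call at an adjusted p of 0.05. Arrows without bars mark lower bounds (Slc7a6 and Slc7a9), and open circles show the other genes scaled by total counts alone. Members higher in Sox4 are spread from 0.41 for Slc3a1 upward, and the 7 lower members lie between -0.58 for Slc36a1 and -2.75 for Slc43a1.

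The neutral amino acid exchangers of family 1 both rose. Slc1a5, which exchanges glutamine and other neutral amino acids, was at 0.616, 1.21 and 0.799 CPM in EV and at 19.4, 18.3 and 16.6 CPM in Sox4. The gene passed the filter on low counts through the Sox4 libraries alone. The groups did not overlap, and the level was 20.6-fold higher in Sox4 (log2 fold change 4.36, SE 0.26, edgeR adjusted p = 1.09e-06). Slc1a4, an exchanger of alanine, serine, cysteine and threonine, was at 13.6, 15.9 and 11.5 CPM in EV and at 72.1, 46.2 and 66.4 CPM in Sox4. It was 4.50-fold higher, also without overlap (log2 fold change 2.17, SE 0.24, edgeR adjusted p = 1.54e-05). The glutamate carriers Slc1a1 and Slc1a3 had at most 3 and 1 counts in a library.

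Both heavy chains were higher, by less than 2-fold. Slc3a2, the heavy chain of most light chains, was at 33.1, 39.0 and 32.1 CPM in EV and at 56.7, 46.3 and 47.8 CPM in Sox4 (log2 fold change 0.53, SE 0.12, edgeR adjusted p = 0.00541). Slc3a1, the heavy chain of the cystine and dibasic amino acid exchanger, was at 73.0, 62.4 and 85.3 CPM in EV and at 111, 83.2 and 99.0 CPM in Sox4 (log2 fold change 0.41, SE 0.18, edgeR adjusted p = 0.0399). Its groups overlapped, since the lowest Sox4 library lay below the highest EV library, and leaving out EV 1, EV 2, Sox4 1 or Sox4 3 took it out of significance, with a log2 fold change of 0.29 to 0.40. Of its exon bases, 26.46% overlap the opposite-strand gene Prepl, which was itself higher (log2 fold change 0.33, edgeR adjusted p = 0.0247), and whether the counting used strand was not stated. The share of heavy chain counts held by Slc3a2 was 32.3% ± 5.63 in EV and 34.1% ± 1.59 in Sox4 (SD, n = 3), a difference within the spread (exact permutation test, two-sided, p = 0.7).

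Among 5 tested light chains 4 rose, from low levels. Of all genes tested 29% were higher, and of those under 1 CPM in EV 60.1%. Of these 4, all but Slc7a7 passed the filter through the Sox4 libraries alone, so their direction was fixed by the filter. Slc7a9, the partner of Slc3a1, had 0 counts in each EV library and 52, 40 and 50 in Sox4. Against a floor of 3 counts per library, it was at least 10.6-fold higher (edgeR adjusted p = 1.09e-04). Slc7a6, which exchanges cationic against neutral amino acids with Slc3a2, had 0, 1 and 0 counts in EV and 25, 13 and 21 in Sox4, at least 4.40-fold higher (edgeR adjusted p = 9.62e-04). Slc7a8, a light chain for neutral amino acids, had 0, 4 and 7 counts in EV and 42, 35 and 41 in Sox4 (log2 fold change 2.83, SE 0.72, edgeR adjusted p = 0.00384). Such floors account for counting error alone.

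Slc7a7, a light chain with the same kind of exchange as Slc7a6, was at 2.31, 2.13 and 3.27 CPM in EV and at 5.76, 6.64 and 5.02 CPM in Sox4. It was 2.26-fold higher without overlap (log2 fold change 1.17, SE 0.21, edgeR adjusted p = 0.00370). Slc7a5, a light chain for large neutral amino acids, was at 3.54, 2.28 and 1.60 CPM in EV and 2.31, 3.17 and 3.60 CPM in Sox4, and did not pass the threshold (log2 fold change 0.29, edgeR adjusted p = 0.502). Shares were taken of the counts of light chains of Slc3a2 among the members (Slc7a5, Slc7a6, Slc7a7, Slc7a8 and Slc7a10). Slc7a5 held 46.0% ± 15.5 in EV and 25.5% ± 5.16 in Sox4 (exact permutation test, two-sided, p = 0.2). Slc7a7 held 48.2% ± 11.2 and 49.0% ± 5.96 (p = 1, exact permutation test). The groups overlapped for both shares, for Slc7a5 only because EV 3 (29.7%) lay below Sox4 3 (30.5%). Since 3 libraries against 3 cannot give an exact two-sided p below 0.1, these tests could not show a difference at 0.05.

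The facilitated carriers of family 43 moved in opposite directions. Slc43a2 and Slc43a1 both let large neutral amino acids cross down their gradient. Slc43a2 was at 2.31, 2.05 and 2.61 CPM in EV and at 44.9, 41.1 and 37.1 CPM in Sox4, 17.6-fold higher (log2 fold change 4.14, SE 0.12, edgeR adjusted p = 1.85e-07). Slc43a1 was at 9.94, 11.8 and 15.3 CPM in EV and at 1.504, 2.25 and 1.72 CPM in Sox4, 6.76-fold lower (log2 fold change -2.75, SE 0.24, edgeR adjusted p = 1.73e-05). Neither pair of groups overlapped. Of the counts of both genes, Slc43a2 held 18.9%, 14.8% and 14.6% in EV and 96.8%, 94.8% and 95.6% in Sox4, a share chosen for description after its values were seen, and 3 libraries against 3 cannot give an exact two-sided p below 0.1. Slc43a3, which carries purine nucleobases, was at 1.77, 3.95 and 3.49 CPM in EV and 1.80, 6.38 and 4.31 CPM in Sox4 and did not pass the threshold (log2 fold change 0.44, edgeR adjusted p = 0.446).

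**Figure D2:**
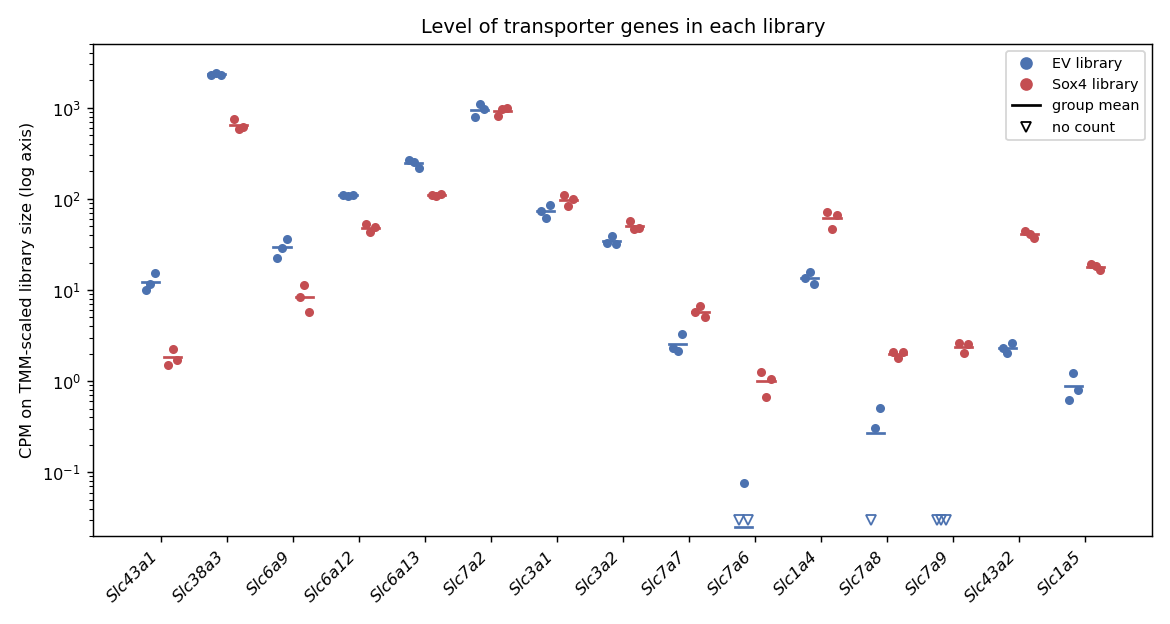
CPM on the TMM-scaled library size (log axis) of selected amino acid transporter genes, with 1 point per library, EV and Sox4 side by side, a line at the group mean and open triangles for libraries with no count. The Sox4 points lie above the EV points for Slc1a5 and Slc43a2 and below them for Slc43a1 and Slc38a3.

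The transporter genes with the highest levels per length were sodium coupled carriers of family 38 and Slc7a2. Per kilobase of exon (GENCODE M21), mean levels in EV were 440 ± 13.9 CPM for Slc38a3, 326 ± 12.3 for Slc38a4, 104 ± 16.5 for Slc7a2, 85.1 ± 8.94 for Slc6a13 and 36.05 ± 0.517 for Slc6a12 (SD, n = 3). In Sox4 the order at the top was Slc38a4 at 172 ± 18.4, Slc38a3 at 123 ± 16.1 and Slc7a2 at 101 ± 10.03 CPM per kilobase. The means of Slc38a3 and Slc7a2 in Sox4 differed by less than the sum of their SDs. Per kilobase of coding sequence the levels in Sox4 were 447 ± 47.7 CPM for Slc38a4, 425 ± 42.4 for Slc7a2 and 410.4 ± 53.7 for Slc38a3, within their spread of each other, so the order in Sox4 depended on the length used.

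Slc38a3, which carries glutamine and histidine with sodium, was at 2305, 2404 and 2260 CPM in EV and at 744, 585 and 614 CPM in Sox4. It was 3.59-fold lower (log2 fold change -1.84, SE 0.11, edgeR adjusted p = 9.74e-06). Slc38a4, a carrier of alanine and other small neutral amino acids, was at 1408, 1432 and 1332 CPM in EV and at 646, 759 and 797 CPM in Sox4, with a log2 fold change of -0.92 (SE 0.10, edgeR adjusted p = 4.39e-04). The groups did not overlap for either gene. Slc38a2, of the same transport type as Slc38a4, was at 101, 170 and 175 CPM in EV and 133, 158 and 170 CPM in Sox4 and did not pass the threshold (log2 fold change 0.05, edgeR adjusted p = 0.865). Slc38a9, a lysosomal carrier that senses arginine, Slc38a7, a lysosomal carrier of glutamine, and Slc38a6 were higher, with log2 fold changes of 0.73, 0.59 and 0.67. Slc38a10 did not pass the threshold (0.32) but passed as higher without Sox4 3 (0.45), with total counts alone (0.79), with a minimum mean count of 50 (0.35) and when low counts were not filtered (0.36). Slc38a1 had 0, 0 and 1 counts in EV and 4, 7 and 10 in Sox4, and Slc38a5 had none in EV and 1, 8 and 4 in Sox4; neither was tested.

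Slc7a2, the arginine and lysine carrier of hepatocytes, was at 790, 1089 and 974 CPM in EV and at 815, 963 and 982 CPM in Sox4. Its groups overlapped, and it did not pass the threshold with TMM (log2 fold change -0.05, SE 0.16, edgeR adjusted p = 0.821), while its log2 fold change was 0.42 with total counts alone (edgeR adjusted p = 0.0384). Its relative Slc7a1 had at most 7 counts in a library. Slc7a2 made up 16.5% ± 2.04 of all member counts in EV and 27.2% ± 2.27 in Sox4 (SD, n = 3), with no overlap between groups.

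The 3 genes Slc38a3, Slc38a4 and Slc7a2 held 80.7 to 81.9% of member counts in EV and 66.6 to 69.4% in Sox4. The summed level of all members was 5745 ± 237 CPM in EV and 3374 ± 69.2 CPM in Sox4 (SD, n = 3), or 0.587 times as large, with no overlap between groups (exact permutation test, two-sided, p = 0.1, the smallest that 3 against 3 allows). As a share of total counts, the members held 0.478 to 0.505% in EV and 0.389 to 0.405% in Sox4. The summed level fell although more members were higher than lower.

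**Figure D3:**
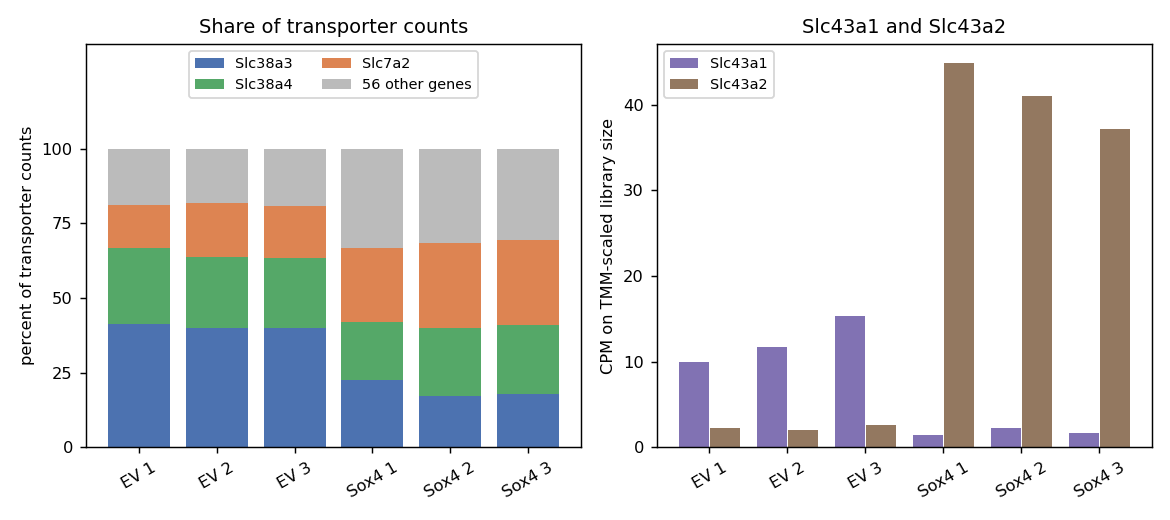
Left, percent of all amino acid transporter counts held by Slc38a3, Slc38a4, Slc7a2 and the other genes in each library; right, CPM of Slc43a1 and Slc43a2 in each library on the TMM-scaled library size. The 3 named genes hold 80.7 to 81.9% in EV and 66.6 to 69.4% in Sox4, and Slc43a2 exceeds Slc43a1 in the Sox4 libraries while Slc43a1 exceeds it in the EV libraries.

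Family 6 holds sodium and chloride coupled carriers for amino acids and for related molecules such as taurine, betaine, creatine and neurotransmitters. Of 19 members, 6 were tested, with 3 lower and 1 higher, beside 26% lower and 29% higher among all genes tested. With so few genes, these counts are a description. Slc6a9, a glycine carrier, was at 22.7, 29.2 and 36.5 CPM in EV and at 8.32, 11.3 and 5.73 CPM in Sox4 (log2 fold change -1.80, SE 0.34, edgeR adjusted p = 3.88e-04). Slc6a12, the betaine and GABA carrier, was at 111, 108 and 111 CPM in EV and at 52.9, 43.7 and 48.9 CPM in Sox4 (log2 fold change -1.18, SE 0.08, edgeR adjusted p = 1.91e-05).

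Slc6a13, a GABA and taurine carrier expressed in liver, was at 268, 255 and 218 CPM in EV and at 109, 107 and 113 CPM in Sox4 (log2 fold change -1.17, SE 0.09, edgeR adjusted p = 3.93e-05). None of these 3 genes had overlapping groups. Slc6a8, the creatine carrier, was higher (log2 fold change 0.76, SE 0.12, edgeR adjusted p = 0.00139). The taurine carrier Slc6a6, with values of 118 to 146 CPM over all 6 libraries, and Slc6a16, with a highest value of 1.23 CPM, did not pass the threshold. Without Sox4 3, Slc6a16 passed as lower (-2.34), and with total counts alone Slc6a6 passed as higher (0.61).

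The proton coupled carriers of family 36 moved apart. Slc36a1, which exports small neutral amino acids from lysosomes, was at 69.3, 66.2 and 60.2 CPM in EV and at 47.1, 41.8 and 42.2 CPM in Sox4 (log2 fold change -0.58, SE 0.08, edgeR adjusted p = 0.00147). With total counts alone its log2 fold change was -0.11 and did not pass the threshold. Slc36a4 was higher, with a log2 fold change of 0.63 (edgeR adjusted p = 0.0111).

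The calls were also listed by level in EV. Of 5 tested members under 1 CPM in EV, 4 were higher and 0 lower, and of 7 at 1 to 10 CPM, 4 were higher and 0 lower. Of 9 members at 10 to 100 CPM, 6 were higher and 3 lower. Of 8 above 100 CPM, 0 were higher and 4 lower with TMM, whereas with total counts alone 4 were higher (Slc7a2, Slc38a2, Slc38a10 and Slc6a6) and 4 lower. Among all genes, 60.1% were higher and 0.601% lower in the lowest class, and 9.37% were higher and 61.2% lower in the highest (25% and 37.2% with total counts alone). The EV libraries enter both the class and the fold change. In the lowest class, 1194 of 1497 genes, and 4 of the 5 members, passed the filter through the Sox4 libraries alone, which fixed their direction, so no relation between level and direction is read from these counts.

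**Figure D4:**
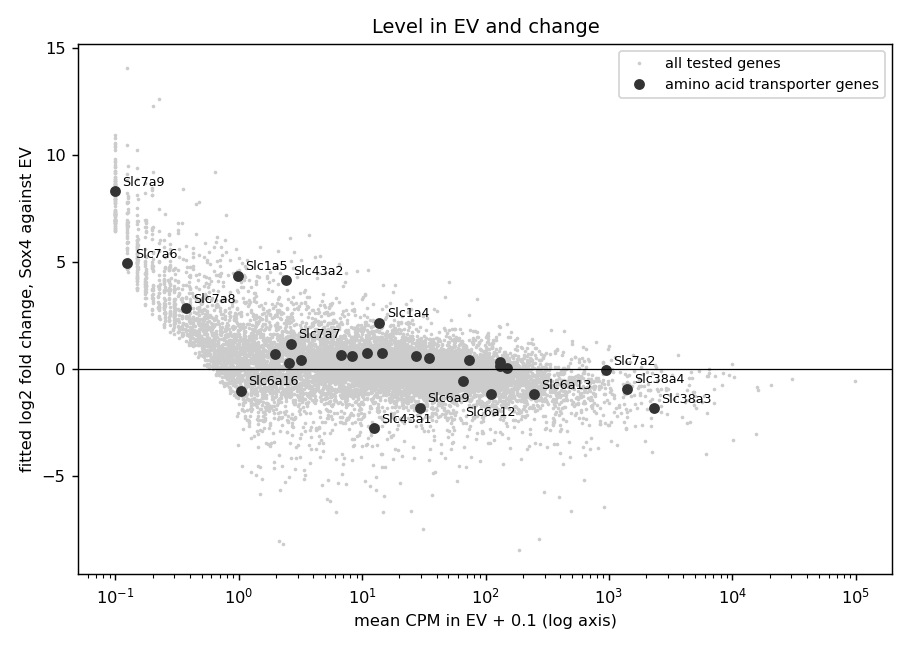
Mean CPM in EV plus 0.1 (log axis, x) against the fitted log2 fold change of Sox4 against EV (y), for the tested transporter genes and, behind them, all genes tested. The 8 members above 100 CPM in EV hold no gene called higher and 4 called lower with TMM, and 4 called each way with total counts alone; fitted values of genes with no count in EV are no bounds.

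Genes that work beside these carriers were read from fixed lists, of which 60 of 74 genes were tested. Of these, 9 were higher and 26 were lower, beside 29% and 26% of all genes tested. With total counts alone, 19 were higher and 10 lower, beside 51% and 12.8% of all genes. Which direction had more calls in the lists thus flipped with the scaling, while the share of all genes called higher also rose. Of 15 other amino acid and peptide carriers, 2 were higher and 8 lower. Slc16a10, which carries aromatic amino acids, fell (log2 fold change -1.91, edgeR adjusted p = 9.32e-06), as did Slc25a44, a mitochondrial carrier of branched-chain amino acids (-1.17). Slc17a8, a vesicular glutamate carrier, also fell (-1.18) but did not pass with total counts (-0.71). Slc15a3, a peptide and histidine carrier, rose (1.76) but did not pass without EV 1, EV 2, Sox4 2 or Sox4 3 (1.35 to 1.72). With 2, 4 and 12 counts in EV, Slc15a3 passed the filter on low counts through the Sox4 libraries alone, which fixed its direction. Of the 2 tested partners of transporters, Laptm4b, a lysosomal protein, was lower with TMM (-0.41) but not with total counts (0.06). It did not pass without EV 1, EV 3, Sox4 1 or Sox4 2 (-0.47 to -0.29). Nor did Laptm4b pass when low counts were not filtered or with a minimum mean count of 50.

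Among 28 tested genes that relay amino acid levels to the growth kinase complex mTORC1, 4 were higher and 11 lower. Over all genes tested, 29% were higher and 26% lower. Rragd, a Rag GTPase that brings the complex to the lysosome, rose (log2 fold change 3.36, edgeR adjusted p = 1.02e-04). With 5, 3 and 3 counts in EV, Rragd passed the filter on low counts through the Sox4 libraries alone, which fixed its direction. Sesn3 (1.36), a sestrin, also rose. Sesn1, a sestrin, fell (-1.20), as did Fnip2 (-1.38), which acts with folliculin. Of 15 tested genes of the amino acid response, 3 were higher and 6 lower. Chac1, which breaks down glutathione, fell (log2 fold change -4.46, edgeR adjusted p = 6.63e-05), as did Atf5 (-1.67), a transcription factor. Aldh18a1, an enzyme of proline synthesis, with 14, 9 and 9 counts in EV, rose (log2 fold change 3.25, edgeR adjusted p = 1.496e-05). Phgdh, the first enzyme of serine synthesis, had 0, 1 and 2 counts in EV and 41, 31 and 34 in Sox4. It was at least 7.92-fold higher (edgeR adjusted p = 2.74e-04). Both Aldh18a1 and Phgdh passed the filter on low counts through the Sox4 libraries alone, which fixed their direction.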

How the data were processed

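RNA-seq of hepatocytes from 3 EV and 3 Sox4 libraries was analysed, with groups and replicate numbers taken from the labels. The authors aligned reads to GRCm39 with STAR (2.7.10b in the submitters' processing notes) and used featureCounts 2.0.1 to assign them to genes; the authors deposited raw counts. The strand setting was not stated. A normalized table was not used, because its column names stand 1 place to the left of the values. Total counts were 15090629 to 16964860 per library, and no 2 libraries of a group were alike within counting noise (chi-square per degree of freedom 17.6 to 62.7).

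The analysis used edgeR 4.0.16 (R 4.3.3), with filterByExpr (minimum count 10, minimum total 15), TMM and the quasi-likelihood F test, with Benjamini-Hochberg adjustment over 12691 genes and a threshold of 0.05. SEs used log2 CPM with a prior count of 2. A group with at most 3 counts in every library gave a lower bound. DESeq2 1.42.0 and limma 3.58.1 were alternatives. On simulated data of 11753 genes with 200 genes changed, 56% of 2-fold and 85% of 4-fold changes were recovered, and 8.44% of calls were false. In the real data 6990 of 12691 genes were called, so these rates need not hold there. Exon lengths and overlaps came from GENCODE M21 (GRCm38).

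Every member past the filter could be named, with full values for those past the threshold by at least 2-fold, the heavy chains and the most abundant member of each family, and up to 4 genes past the threshold from each other list. Members and lists were chosen with earlier results of these data known. The labels do not tie libraries to animals, and the paper describes the RNA-seq as 3 animals per group.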

Additional observations from a re-analysis of the deposited data

How the results depend on the processing

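Library size alone, DESeq2 size factors, the DESeq2 Wald test, limma-voom, limma on median-of-ratios values plus 1, no filter, a mean count of at least 50, a replicate block and each library left out were tried. Members higher ranged from 12 to 19 and lower from 6 to 8. The median log2 fold change of the members was 0.91 with library size alone and 0.63 with no filter, and 0.45 to 0.61 with a library left out. Genes of the other lists were higher and lower in 19 and 10 cases with library size alone, and in 6 to 9 and 20 to 25 with a library left out. The cause of these shifts was not tested.

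Directions reversed for Slc7a2 (0.42) and Laptm4b (0.059) with library size alone. With a library left out, the log2 fold change ranged across 0 for Slc7a2 (-0.18 to 0.046), Slc38a2 (-0.18 to 0.16) and Slc43a3 (-0.0049 to 0.79), none of which passed the threshold on all libraries. With a library left out, the difference in share (Sox4 minus EV, percentage points) ranged from -0.75 to 4.79 for Slc3a2 among heavy chains, from -3.60 to 7.07 for Slc7a7 and from -28.6 to -13.2 for Slc7a5 among light chains, and from 78.9 to 81.0 for Slc43a2. Among values of single genes under an alternative, 547 were as before in direction and call, 16 were no longer called, 8 became called and 7 changed sign.

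Deviations of same-numbered libraries correlated at 0.27, -0.09 and 0.13 for replicates 1, 2 and 3. Replicate 1 matched its own number best, and replicates 2 and 3 did not. These values do not decide whether same-numbered libraries shared a batch. With the replicate block, 14 members were higher and 7 lower, the median was 0.41, and 7362 genes were called instead of 6990.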
